A study of Mus musculus with 15 samples.

Results

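The CXC chemokine ligands described here are 9 genes, Cxcl1, Cxcl2, Cxcl3, Cxcl5, Cxcl9, Cxcl10, Cxcl11, Cxcl14 and Cxcl16, among 36870 gene names on the array. They were taken as every noncontrol probe whose gene name equals a member's, which gave 13 of 56605 probes. All 13 passed the filter on dim probes, but for 3 genes the brightest probe was above background on fewer than all 15 arrays. By role, 4 members attract neutrophils (Cxcl1, Cxcl2, Cxcl3 and Cxcl5), 3 are induced by interferon (Cxcl9, Cxcl10 and Cxcl11) and 2 belong to neither class (Cxcl14 and Cxcl16).

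The study profiled RAW264.7 cells, a mouse macrophage-like line, with one-colour Agilent arrays. There were 5 groups of 3 samples: dexamethasone (DEX), fluticasone furoate (FF), the code-named steroids VSG158 and VSG159, and vehicle (EtOH, DMSO). Steroids were given at 100 nM, starting 1 h before bacterial lipopolysaccharide (LPS) at 1 ug/ml, which was left on for 16 h. The shared protocol includes LPS for all samples, yet the vehicle labels name solvents alone, so LPS in the vehicle wells rests on that protocol, and the labels do not say which steroid was in which solvent. All groups are 1 cell line, and the labels do not say whether the 3 samples of a group came from separate cultures (the series text speaks of duplicates), so p-values measure a spread between samples that may be technical.

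CXC chemokines are small secreted proteins that guide leukocytes through G protein-coupled receptors. In macrophages, LPS acts on TLR4, whose MyD88 arm turns on NF-kB and, with it, the ligands of the neutrophil receptor CXCR2. The TRIF arm induces interferon beta, which acts back on the cells through the type I interferon receptor and turns on the ligands of CXCR3, a receptor of activated T cells. Glucocorticoids bind the receptor NR3C1, which acts on genes directly and also restrains NF-kB and AP-1, and they are known to lower many inflammatory genes in macrophages.

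The stretches just upstream of the chemokine genes are shown so that NF-kB and interferon motifs can be compared between the members by role. RefSeq promoter windows were present for 6 of the 9 members (GRCm38.p6), and 5 are printed, each 250 bases long and ending just before the start of transcription. They lie at chr5:90890995-90891244 for Cxcl1, chr5:90903649-90903898 for Cxcl2 and chr5:90785851-90786100 for Cxcl3, all on the plus strand. The windows of Cxcl9 (chr5:92328080-92328329) and Cxcl10 (chr5:92348890-92349139) are on the minus strand. Capitals mark matches to the motifs searched, on either strand except for the TATA box, which was searched on the printed strand alone.

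Cxcl1: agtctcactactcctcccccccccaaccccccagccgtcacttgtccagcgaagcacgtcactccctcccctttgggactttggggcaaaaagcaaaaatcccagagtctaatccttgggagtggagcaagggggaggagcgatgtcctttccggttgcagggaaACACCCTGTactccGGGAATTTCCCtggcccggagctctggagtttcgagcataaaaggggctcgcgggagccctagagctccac
Cxcl2: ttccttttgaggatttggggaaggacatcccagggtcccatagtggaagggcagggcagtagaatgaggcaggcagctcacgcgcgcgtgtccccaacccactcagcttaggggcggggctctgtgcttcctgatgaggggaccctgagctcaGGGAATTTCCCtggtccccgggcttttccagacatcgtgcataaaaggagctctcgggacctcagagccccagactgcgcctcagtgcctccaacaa
Cxcl3: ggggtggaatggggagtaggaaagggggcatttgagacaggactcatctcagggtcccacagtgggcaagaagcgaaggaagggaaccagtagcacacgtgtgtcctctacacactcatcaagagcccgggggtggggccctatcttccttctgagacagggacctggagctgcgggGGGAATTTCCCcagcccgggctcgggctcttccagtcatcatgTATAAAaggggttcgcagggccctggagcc
Cxcl9: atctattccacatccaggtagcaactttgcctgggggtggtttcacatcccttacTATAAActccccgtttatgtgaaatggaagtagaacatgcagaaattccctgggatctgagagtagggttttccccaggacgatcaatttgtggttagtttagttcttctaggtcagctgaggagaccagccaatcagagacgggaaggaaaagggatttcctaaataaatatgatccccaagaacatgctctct
Cxcl10: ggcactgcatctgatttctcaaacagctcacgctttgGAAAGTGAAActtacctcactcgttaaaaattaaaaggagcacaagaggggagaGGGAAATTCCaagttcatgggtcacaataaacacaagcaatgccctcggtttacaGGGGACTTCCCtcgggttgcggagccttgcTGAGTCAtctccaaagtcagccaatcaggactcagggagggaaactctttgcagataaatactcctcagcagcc

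The 3 neutrophil-attracting genes shown carried an identical NF-kB match, GGGAATTTCC, which overlaps a second match shifted by 1 base. It began 71 bases before the start in Cxcl1, 97 in Cxcl2 and 73 in Cxcl3. Cxcl10 held the NF-kB matches GGGAAATTCC, from base 159 before the start, and GGGGACTTCC, from base 104, which again overlaps a match shifted by 1 base. An NF-kB match was found in 7.25% of all 32851 mouse promoter windows of this length. Of the printed windows, that of Cxcl10 alone held the interferon-stimulated response element searched (2.98% of windows), as GAAAGTGAAA from base 213, and the AP-1 motif TGANTCA (6.75%), as TGAGTCA from base 74. Cxcl1 held the glucocorticoid receptor palindrome ACANNNTGT (5.84% of windows), as ACACCCTGT from base 85. The TATA box TATAAA (7.59%) was matched 30 bases before the start in Cxcl3 and 195 bases before it in Cxcl9. The window of Cxcl14, which is not shown, held an interferon-stimulated response element match, GAAACAGAAA, from base 172. The gamma-activated site TTCNNNGAA (7.02% of windows) was also searched. It was matched in none of the printed windows, and in that of Cxcl14 as TTCTGAGAA from base 191. These matches describe letters in a window and say nothing of binding in these cells.

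On each array, 39.6% to 50.4% of spots were well above background and none was saturated. Values are given as signal, the processed intensity as a multiple of the array's own 75th percentile. Probe levels are not compared between genes. Steroid-response genes rose in every steroid group against vehicle: Fkbp5, a receptor co-chaperone, by 3.37 to 3.6 and the acute-phase gene Hp by 5.94 to 7.16 on the log2 scale. Of 10 macrophage markers, 9 were above background on all 15 arrays (Marco, the exception, on 1 of 3 VSG158 arrays), and their summed signal was 795 to 949 with DEX, 807 to 877 with FF, 781 to 874 with VSG158, 882 to 948 with VSG159 and 847 to 946 in vehicle. None of 5 epithelial markers passed the filter, and 2 of 6 fibroblast, 2 of 4 endothelial, 3 of 4 T cell and 2 of 7 neutrophil markers did. Of these, the fibroblast marker Dcn was called higher with all 4 steroids (log2 change 0.66 to 1.23) and the T cell marker Cd3d lower with all 4 (-1.90 to -1.67, above background on 6 of 15 arrays). The summed fibroblast signal was 0.228 to 0.325 with DEX, 0.345 to 0.540 with FF, 0.284 to 0.418 with VSG158, 0.360 to 0.402 with VSG159 and 0.205 to 0.237 in vehicle. The T cell sum was 6.27 to 8.42, 4.93 to 5.63, 4.87 to 7.85, 4.06 to 6.98 and 4.59 to 5.37 in these groups. The neutrophil sum was 58.8 to 112 with DEX, 33.9 to 45.1 with FF, 30.5 to 109 with VSG158, 27.5 to 105 with VSG159 and 32.3 to 66.5 in vehicle, nearly all of it Elane, while Ly6g, Mpo, Cxcr2, Ltf and Ngp did not pass. The part of these markers in the chemokine results was not tested. DEX and FF arrays lay on a different slide from vehicle and VSG158 arrays, with VSG159 on both, and groups filled neighbouring positions, so values with slide in the fit are given beside the results.

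Against vehicle, Cxcl2, Cxcl10 and Cxcl16 were called lower with all 4 steroids. So was Cxcl9, but it was above background on only 2 vehicle arrays and on no steroid array. It entered the test through vehicle alone, so its calls support nothing by themselves. The other members were not lower with all 4. Of the members above background on all arrays, Cxcl10 fell furthest, to 4.8% of vehicle with FF, and Cxcl2 and Cxcl16 fell with each steroid by 1.52- to 2.58-fold. Cxcl3 was the member on which DEX and the other steroids parted. It fell with FF, VSG158 and VSG159 and was slightly higher with DEX. Cxcl11 did not pass the test with any steroid.

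With DEX, 4 of 9 members were called lower and 3 higher, where 23.1% of 19506 genes were called lower and 23.2% higher (limma, adjusted p under 0.05 over all tested probes). With FF, 5 members were lower and 1 higher, against 21.4% and 20.8% of genes. With VSG158, 5 were lower and 0 higher (24.6% and 19.7% of genes). With VSG159, 5 were lower and 1 higher (24.9% and 19.1% of genes). The unadjusted p was under 0.05 for 7 members under VSG158, beside 9811 of 19506 genes. For VSG159 it was so for 7 members (9877 genes), for DEX for 7 (10371 genes) and for FF for 6 (9432 genes). Cxcl1 passed the filter on dim probes through DEX alone and Cxcl9 through vehicle alone, groups in which they were high, so these counts support nothing by themselves. The median change of the 9 members was -0.19 under DEX (all genes, 0.03), -0.98 under FF (all genes, -0.05), -0.92 under VSG158 (all genes, -0.06) and -1.11 under VSG159 (all genes, -0.06). Genes dim in 1 group enter those member medians through fitted values, and with their bounds instead the medians were -0.19, -0.56, -0.18 and -0.80. The DEX median and the VSG158 median with bounds are each the change of the brighter Cxcl11 probe. That probe holds sequence found in other genes, and whether it measured Cxcl11 RNA was not tested. Cxcl1, dim in both groups of the FF and VSG158 comparisons, has no measured change there and still enters by its fitted value. In RNA from whole wells, fewer cells making a chemokine and less of its RNA per cell cannot be told apart.

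**Figure D1:**
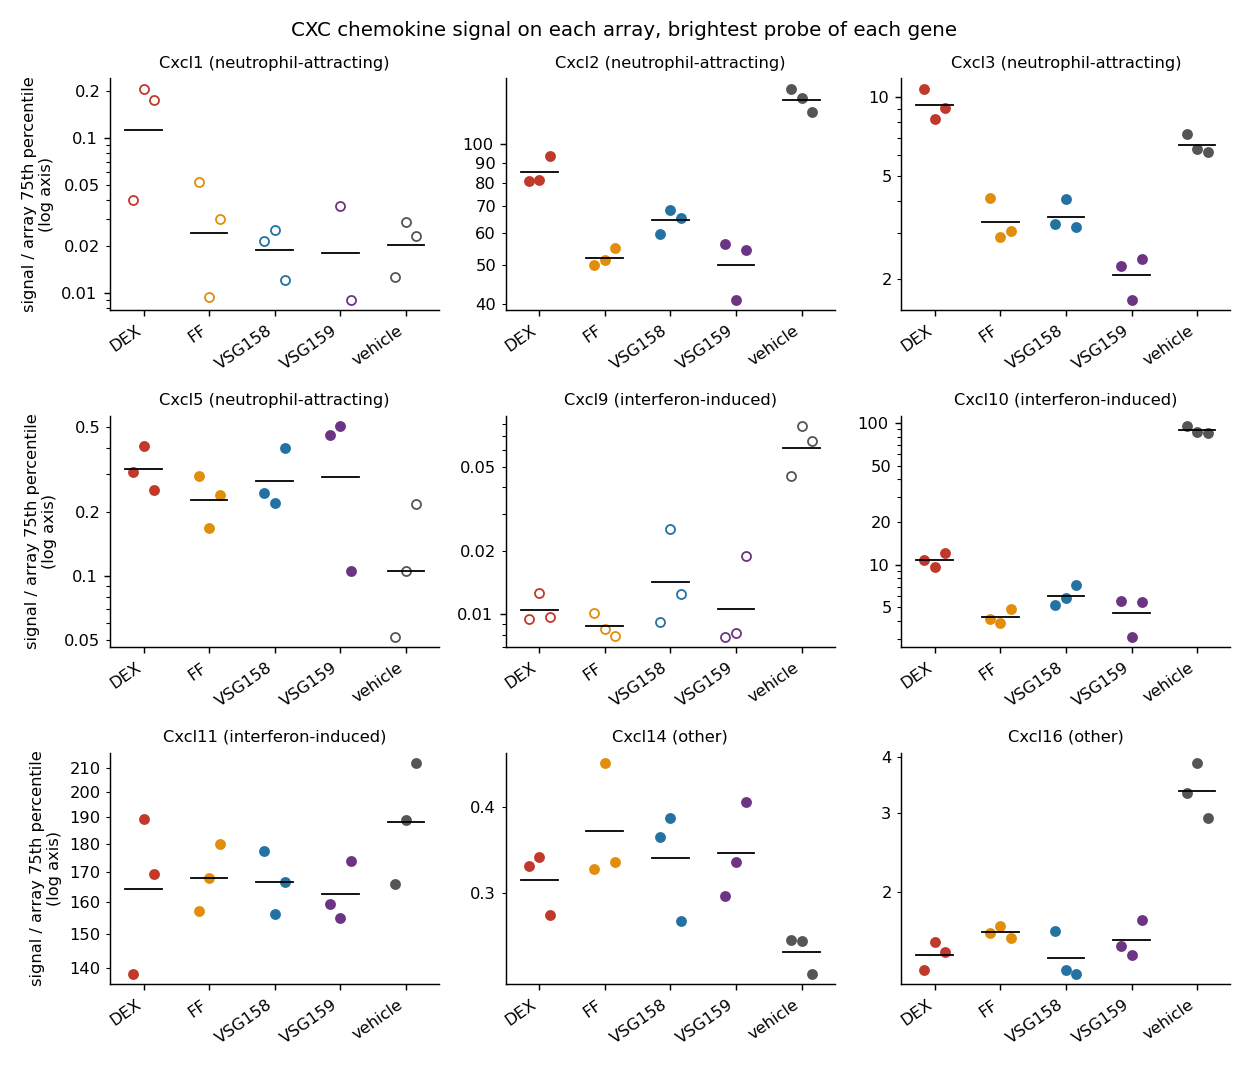
Signal of the brightest probe of each CXC chemokine on each of the 15 arrays (vertical log axis, multiples of the array's 75th percentile), by group. Points are arrays, black lines are means of the log values, and open points mark a gene and group in which at least 1 array was not well above background. Cxcl10, Cxcl2 and Cxcl16 have all 12 steroid arrays below all vehicle arrays, and Cxcl3 has the DEX arrays on top.

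**Figure D2:**
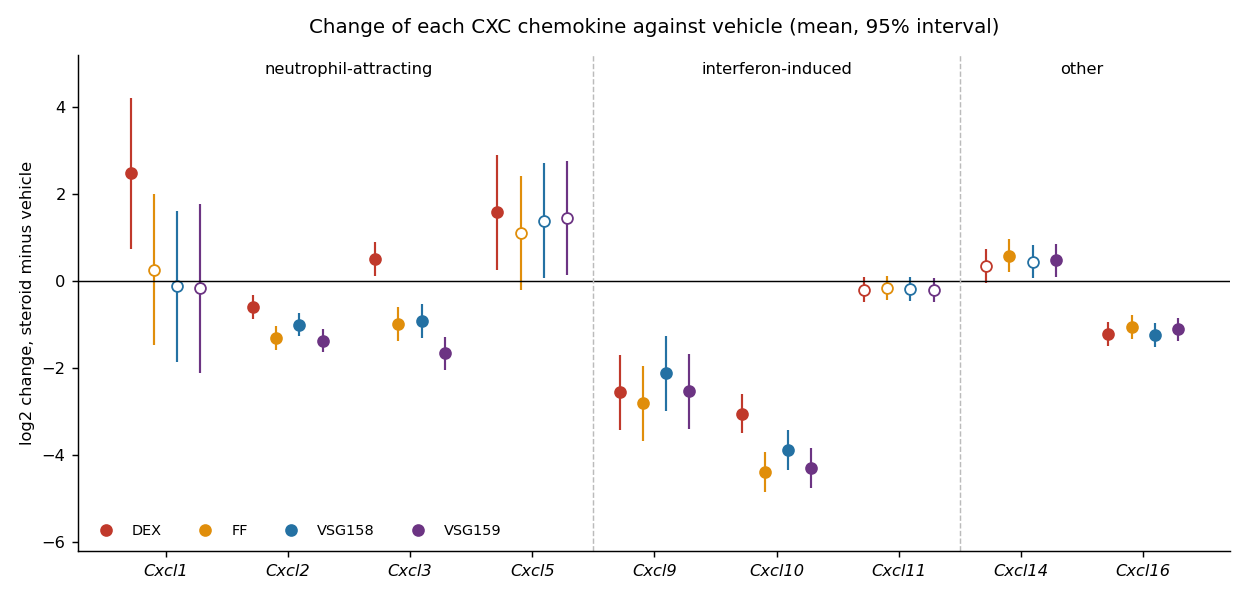
log2 change of each member's brightest probe against vehicle with its 95% interval (n = 3 arrays a group), by role. Filled points passed the test at adjusted p under 0.05 and open points did not. Cxcl9 and Cxcl1 are shown with every steroid by fitted values, which are no bounds because at least 1 of the groups compared was not above background.

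Cxcl2, which encodes a ligand of CXCR2 made in bulk by activated macrophages, was measured by 1 probe (mm9 chr5:91334534-91334593, plus strand). Its signal was 81.1, 81.6 and 93.4 with DEX, 49.8, 51.4 and 55.0 with FF, 59.9, 68.7 and 65.4 with VSG158 and 56.3, 40.9 and 54.3 with VSG159, against 138, 130.3 and 120.4 in vehicle. No steroid array reached the lowest vehicle array, and the DEX arrays lay above those of every other steroid. Cxcl2 was 1.52-fold lower with DEX (log2 change -0.60, SE 0.12, adjusted p = 0.00185) and 2.48-fold lower with FF (-1.31, SE 0.12, adjusted p = 3.94e-06). It was 2-fold lower with VSG158 (-1, SE 0.12, adjusted p = 3.86e-05) and 2.58-fold lower with VSG159 (-1.37, SE 0.12, adjusted p = 2.87e-06). Within slide 1 the changes were -1 for VSG158 and -1.43 for VSG159, both called, and with slide as a fixed block -0.78 for DEX and -1.49 for FF, also called. With slide and array position in the fit, the calls for DEX (-0.84, adjusted p = 0.66) and FF (-1.54, adjusted p = 0.097) were lost.

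Cxcl3, a further CXCR2 ligand whose gene lies between Cxcl5 and Cxcl1 in the chromosome 5 cluster, was measured at mm9 chr5:91216694-91216753 (plus strand). Signal was 10.8, 8.22 and 9.12 with DEX, 4.09, 2.91 and 3.07 with FF, 3.25, 4.07 and 3.17 with VSG158, 2.24, 1.67 and 2.39 with VSG159, and 7.21, 6.35 and 6.16 in vehicle. All DEX arrays lay above all vehicle arrays, all FF and VSG158 arrays lay below them, and the VSG159 arrays were below every other array of the study. The fall was 1.98-fold with FF (log2 change -0.98, SE 0.18, adjusted p = 0.000647), 1.89-fold with VSG158 (-0.92, adjusted p = 0.00105) and 3.16-fold with VSG159 (-1.66, adjusted p = 1.04e-05). These 3 calls held under every setting but the one with slide and array position, where the changes were -0.29, -0.52 and -1.03.

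The rise of Cxcl3 with DEX was 1.42-fold (log2 change 0.50, SE 0.18, adjusted p = 0.0331), and the call was fragile. It held under 5 of 14 other settings, and over all 14 the change was 0.20 to 1.59. With slide as a fixed block it was 0.20 (adjusted p = 0.629). It was also lost without vehicle replicate 2 or 3 or DEX replicate 1 or 3, and over all 15 fits that left out 1 array the change was 0.40 to 0.59. No setting gave a negative change of Cxcl3 with DEX.

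Cxcl1, which encodes the CXCR2 ligand KC, was barely above background here (mm9 chr5:91322080-91322139, plus strand). Its signal was 0.0400, 0.208 and 0.176 with DEX, 0.0517, 0.00942 and 0.0301 with FF, 0.0217, 0.0253 and 0.0121 with VSG158, and 0.0127, 0.0287 and 0.0232 in vehicle. With VSG159 the first array's spot was marked as an outlier and left missing, and the others read 0.0364 and 0.00903. It was above background on 2 of 3 DEX arrays, 1 VSG159 array and no other. It entered the test through the DEX group alone, the group in which it was high. Cxcl1 was called higher with DEX (adjusted p = 0.0238), by 2.6-fold over the vehicle arrays' lowest signal well above background. That fold is not a strict lower bound, since the DEX mean takes in an array not above background. The call was lost without vehicle replicate 1 or DEX replicate 2 or 3, and with outlier spots kept. It was also lost in the deposited value table, when adjusted over all 10 comparisons, and with slide and position in the fit. Cxcl1 was not called with FF, VSG158 or VSG159 (adjusted p = 0.828, 0.921 and 0.895).

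Cxcl5, which encodes the CXCR2 ligand LIX, made mainly by epithelial and stromal cells, was dim as well (mm9 chr5:91190490-91190549, plus strand). Signal was 0.309, 0.409 and 0.252 with DEX, 0.294, 0.169 and 0.239 with FF, 0.245, 0.219 and 0.400 with VSG158, 0.461, 0.505 and 0.106 with VSG159, and 0.0520, 0.105 and 0.218 in vehicle. All steroid arrays were above background, against 2 of 3 vehicle arrays, and the FF and VSG159 arrays overlapped those of vehicle. The change was called with DEX alone (log2 1.58, SE 0.60, adjusted p = 0.0481), and the values with FF, VSG158 and VSG159 were 1.11, 1.39 and 1.46 (adjusted p = 0.166, 0.0799 and 0.0681). Cxcl5 did not differ between DEX and any other steroid by this test, and the DEX call held under 6 of 14 other settings. It was lost without vehicle replicate 1 or 2 and without any 1 of the DEX, FF or VSG158 arrays (log2 change 1.07 to 2.10 over all 15 fits that left out 1 array). With slide as a fixed block all 4 changes were called, at 3.77, 3.29, 1.39 and 2.19 for DEX, FF, VSG158 and VSG159.

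Cxcl10, the interferon-induced ligand IP-10 that draws T cells through CXCR3, showed the largest change of the 6 genes measured above background on all arrays. Its main probe (mm9 chr5:92775781-92775840, minus strand) read 10.7, 9.66 and 12.2 with DEX, 4.12, 3.90 and 4.86 with FF, 5.24, 5.85 and 7.25 with VSG158 and 5.54, 3.1 and 5.48 with VSG159, against 95, 86.9 and 85.6 in vehicle. The 12 steroid arrays and the 3 vehicle arrays were far apart, and the DEX arrays were the highest of the steroid arrays. Cxcl10 stood at 12.1% of vehicle with DEX (log2 change -3.04, SE 0.21, adjusted p = 4.36e-07), 4.8% with FF (-4.38, adjusted p = 1.64e-08), 6.8% with VSG158 (-3.88, adjusted p = 4.53e-08) and 5.11% with VSG159 (-4.29, adjusted p = 1.98e-08). The mean log levels thus ran from vehicle through DEX, VSG158 and VSG159 to FF, and no neighbours among the last 4 differed by the test.

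The fall of Cxcl10 held under every setting with FF, VSG158 and VSG159, at -5.06 to -3.83 over all of them. With DEX it held under 13 of 14 settings, and with slide and array position it was -3.83 (adjusted p = 0.174). Within slide 1 the changes were -3.88 with VSG158 and -4.43 with VSG159. A second Cxcl10 probe (mm9 chr5:92776616-92776675, minus strand), which the file assigns to an Ensembl transcript without a RefSeq mRNA, was above background on all 3 vehicle arrays and on no steroid array. That probe entered the test through vehicle alone. There, signal was 0.00804 to 0.0639 over the steroid arrays, against 0.179, 0.108 and 0.118 in vehicle. It was at least 2.58-fold lower with DEX, 3.15-fold with FF, 2.25-fold with VSG158 and 3.71-fold with VSG159 (adjusted p = 0.000416, 0.000208, 0.00229 and 6.12e-05), and these calls too were lost with slide and array position in the fit.

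Cxcl9, the ligand MIG that shares CXCR3 with Cxcl10 and is known mainly as an interferon gamma target, was close to background (mm9 chr5:92752191-92752250, minus strand). Signal was 0.00949, 0.0126 and 0.00970 with DEX, 0.0102, 0.00853 and 0.00791 with FF, 0.00919, 0.0253 and 0.0124 with VSG158, 0.00783, 0.00815 and 0.0190 with VSG159, and 0.0452, 0.0781 and 0.0667 in vehicle. Only 2 vehicle arrays were above background, and all vehicle arrays lay above all steroid arrays. The gene entered the test through vehicle alone, where it was high. Cxcl9 was called lower with each steroid (adjusted p = 0.000242, 0.0001, 0.000861 and 0.000223 for DEX, FF, VSG158 and VSG159). Set against the arrays' lowest signal well above background, the falls were 1.21-, 1.48-, 1.05- and 1.74-fold. The vehicle mean takes in an array not above background, so these are not strict lower bounds. The steroids cannot be ordered by these falls, since no steroid array was above background. With slide and array position the calls with DEX (adjusted p = 0.291) and FF (adjusted p = 0.0613) were lost.

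Cxcl11, the third ligand of CXCR3, was measured by 2 probes that lie close together (mm9 chr5:92788567-92788626 and chr5:92788640-92788699, minus strand). The brighter read 138, 189 and 169.6 with DEX, 157, 168 and 180.2 with FF, 178, 156 and 167 with VSG158, 159, 155 and 174 with VSG159, and 166, 189 and 212 in vehicle. The groups overlapped, and the changes were -0.19, -0.16, -0.18 and -0.21 (SE 0.13, adjusted p = 0.231, 0.345, 0.294 and 0.202) with intervals between -0.49 and 0.12. The dimmer probe read 3.86 to 5.73 over the steroid arrays and 4.91 to 5.39 in vehicle, with changes of -0.26 to -0.03, none called except that with DEX when slide was a fixed block (adjusted p = 0.0455). The falls of Cxcl10 lay outside all 8 intervals of these probes.

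The 2 Cxcl11 probes hold sequence that recurs in the promoter windows and probes of other genes. In 30-base stretches of each, read from the array's probe sequences, capitals mark the 16-base word of that stretch held by the most promoter windows.

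Cxcl11 brighter probe, bases 14 to 43: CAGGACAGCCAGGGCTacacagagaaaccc
Cxcl11 dimmer probe, bases 16 to 45: cagcacttgaaaGGCAGAGGCAGGAGGAtc

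The capital word of the brighter probe was present in 24 promoter windows, and any 16-base word of that probe in 55 of 32851. For the dimmer probe these counts were 3 and 10, and for the other 11 member probes the second was 0 to 2. The brighter probe shared a 16-base word with 16 probes of other genes on the same strand, whose median changes against vehicle were -0.12 under DEX, -0.12 under FF, -0.16 under VSG158 and -0.22 under VSG159. The RefSeq table lists mouse Cxcl11 as a transcribed pseudogene. Whether the Cxcl11 signal came from Cxcl11 RNA was not tested.

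Cxcl16 encodes a membrane-bound chemokine that is the ligand of CXCR6 and also takes up oxidised lipoprotein. Its brighter probe (mm9 chr11:70269481-70269540, minus strand) read 1.34, 1.54 and 1.46 with DEX, 1.61, 1.67 and 1.58 with FF, 1.63, 1.34 and 1.31 with VSG158 and 1.51, 1.44 and 1.73 with VSG159, against 3.33, 3.88 and 2.93 in vehicle. All steroid arrays lay below all vehicle arrays, and the steroid groups lay close together. The fall was 2.33-fold with DEX (log2 change -1.22, SE 0.13, adjusted p = 1.05e-05), 2.07-fold with FF (-1.05, adjusted p = 2.75e-05), 2.37-fold with VSG158 (-1.24, adjusted p = 7.15e-06) and 2.16-fold with VSG159 (-1.11, adjusted p = 1.76e-05). Within slide 1 the changes were -1.24 with VSG158 and -1.19 with VSG159. With slide and array position in the fit the calls with DEX (-0.90, adjusted p = 0.613), FF (-0.89, adjusted p = 0.315) and VSG159 (-0.90, adjusted p = 0.0829) were lost, and every other setting kept them.

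A dimmer Cxcl16 probe (mm9 chr11:70267780-70267839, minus strand) read 0.666 to 0.700 with DEX, 0.489 to 0.571 with FF, 0.502 to 0.655 with VSG158 and 0.501 to 0.553 with VSG159, against 0.807 to 1.09 in vehicle. It too was called lower with each steroid, by 1.40-fold with DEX and 1.65- to 1.83-fold with the others. On this probe DEX gave the smallest fall (log2 -0.48, adjusted p = 0.00822), while on the brighter probe FF did. The DEX call of the dimmer probe held under 8 of 13 other settings and was lost with slide as a fixed block (-0.39, adjusted p = 0.208). Neither probe separated DEX from another steroid by the test.

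Cxcl14, a chemokine expressed mostly by epithelium, was low yet above background on all arrays at its main probe (mm9 chr13:56390078-56390137, minus strand). Signal was 0.328, 0.338 and 0.279 with DEX, 0.325, 0.462 and 0.332 with FF, 0.362, 0.385 and 0.273 with VSG158, 0.296, 0.333 and 0.406 with VSG159, and 0.256, 0.255 and 0.229 in vehicle. No vehicle array reached a steroid array. The rise was called with FF (log2 0.58, SE 0.17, adjusted p = 0.0176) and VSG159 (0.47, adjusted p = 0.0434), and the values were 0.35 with DEX (adjusted p = 0.123) and 0.45 with VSG158 (adjusted p = 0.0535). The FF call held under 7 of 14 other settings and was lost without vehicle replicate 3 or FF replicate 2. The VSG159 call held under 5 of 15 and in 6 of 15 fits that left out 1 array, and was lost without any 1 of the vehicle arrays. With slide as a fixed block the changes with FF and VSG159 were 0.21 and 0.35 (adjusted p = 0.613 and 0.134), and that with VSG158 was called (0.45, adjusted p = 0.0422). A second probe, made from a predicted transcript, was above background on 4 arrays, 2 of vehicle, 1 of FF and 1 of VSG158. It entered the test through vehicle alone and was called with DEX (adjusted p = 0.0138), so this call supports nothing by itself. The call was lost without vehicle replicate 2 and under 5 of 12 other settings. The vehicle mean of this probe lay under the DEX arrays' floor, the lowest signal among probes well above background, so no fold or direction is given for it.

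**Figure D3:**
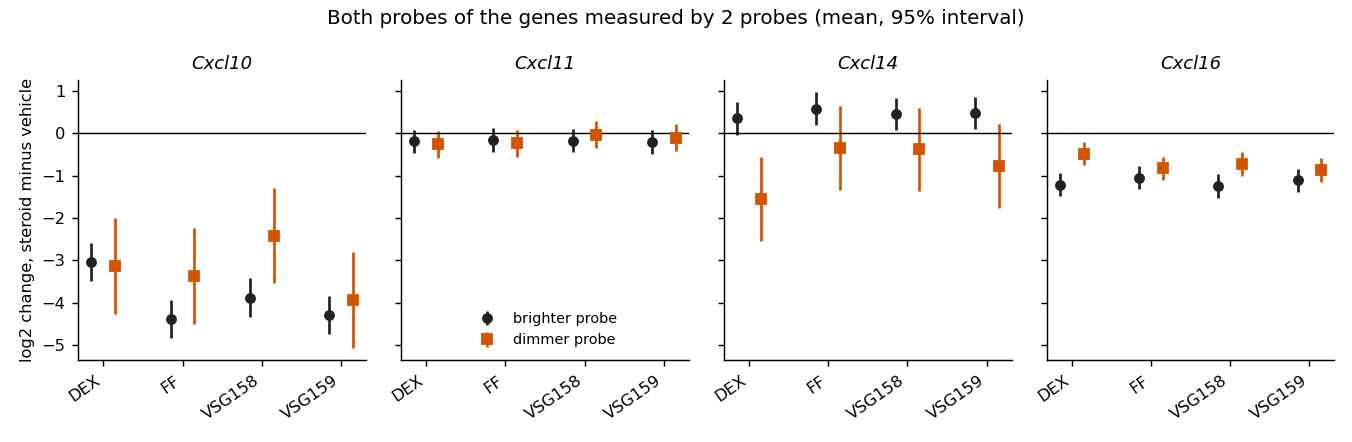
log2 change against vehicle, with 95% intervals, of both probes of the 4 members measured by 2 probes (n = 3 arrays a group). Both Cxcl10 and both Cxcl16 probes lie below 0 with all 4 steroids, and both Cxcl11 probes lie near 0. The dimmer Cxcl10 and Cxcl14 probes were not above background in some groups, so their values are fitted and not bounds.

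The compounds were next set against each other at their common dose and time, in 6 pairs over 9 genes. DEX and FF are both fluorinated corticosteroids, and FF carries a furoate ester and a thioester side chain that DEX lacks, while no structure is given for VSG158 and VSG159. Against DEX, Cxcl2, Cxcl3 and Cxcl10 were the members that differed. With FF, 3 of 9 members were lower than with DEX, where 4.08% of all genes were called in either direction. With VSG159 the same count was 3 of 9 against 4.82%, and with VSG158 it was 1 of 9 against 2.11%. Each of these comparisons shares its DEX arrays with the others.

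Of the called members, Cxcl3 differed most between DEX and the other steroids. It was 2.80-fold lower with FF than with DEX (log2 difference -1.49, SE 0.18, adjusted p = 0.00288), 2.68-fold lower with VSG158 (-1.42, adjusted p = 0.00391) and 4.48-fold lower with VSG159 (-2.16, adjusted p = 0.000417). FF and DEX lie on 1 slide, and within it the FF difference was -1.49 (adjusted p = 0.0356). VSG159 replicate 3, the array that shares that slide, gave -1.96 (adjusted p = 0.0545), where the lone array is assumed to vary like the others. For VSG158 the difference was -1.12 with slide as a fixed block (adjusted p = 0.074).

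Cxcl10 was 2.53-fold lower with FF than with DEX (log2 difference -1.34, SE 0.21, adjusted p = 0.00848) and 2.38-fold lower with VSG159 (-1.25, adjusted p = 0.0101). With VSG158 the difference of -0.84 did not pass (95% interval -1.29 to -0.38, adjusted p = 0.0604). Cxcl2 was 1.64-fold lower with FF (-0.71, SE 0.12, adjusted p = 0.0127) and 1.7-fold lower with VSG159 (-0.77, adjusted p = 0.00832), and with VSG158 the difference was -0.40 (interval -0.67 to -0.13, adjusted p = 0.121). Within the shared slide, FF minus DEX was -1.34 for Cxcl10 (adjusted p = 0.0356) and -0.71 for Cxcl2 (adjusted p = 0.0393). VSG159 replicate 3 minus DEX was -0.98 (adjusted p = 0.0671) and -0.65 (adjusted p = 0.0731). Under array median scaling, which called 0 of 19506 genes for FF against DEX and 30 for VSG159 against DEX, the calls of FF against DEX were lost for all 3 genes, as were those of VSG159 against DEX for Cxcl2 and Cxcl10. Over all settings FF minus DEX stayed between -1.89 and -1.24 for Cxcl3, -1.34 and -0.98 for Cxcl10, and -0.71 and -0.51 for Cxcl2. The Cxcl2 call of FF against DEX was also lost without FF replicate 1 or 2 or DEX replicate 3, and the Cxcl10 call of VSG159 against DEX without DEX replicate 3.

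Among FF, VSG158 and VSG159, 0 of 9 members were called in any pair by limma, as were 0% of genes in each pair. At an unadjusted p under 0.05 there were 2 members for VSG158 against FF, 1 for VSG159 against FF and 2 for VSG159 against VSG158, beside 1206, 1140 and 1167 genes. Cxcl3 had the widest gap, at -0.74 for VSG159 against VSG158 (95% interval -1.13 to -0.36) and -0.68 for VSG159 against FF (-1.06 to -0.29), with no overlap between the arrays. When p-values were adjusted over all 10 comparisons together, these gaps were called (adjusted p = 0.010 and 0.017), as were Cxcl1 (adjusted p = 0.0419), Cxcl2 (0.0417) and Cxcl10 (0.0135) for VSG158 against DEX. For the brighter Cxcl16 probe all 6 pairs lay between -0.19 and 0.17, with intervals between -0.47 and 0.44. The dimmer Cxcl16 probe gave -0.35 for FF against DEX (interval -0.63 to -0.07, adjusted p = 0.131) and -0.39 for VSG159 against DEX (-0.66 to -0.11, adjusted p = 0.0987).

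**Figure D4:**
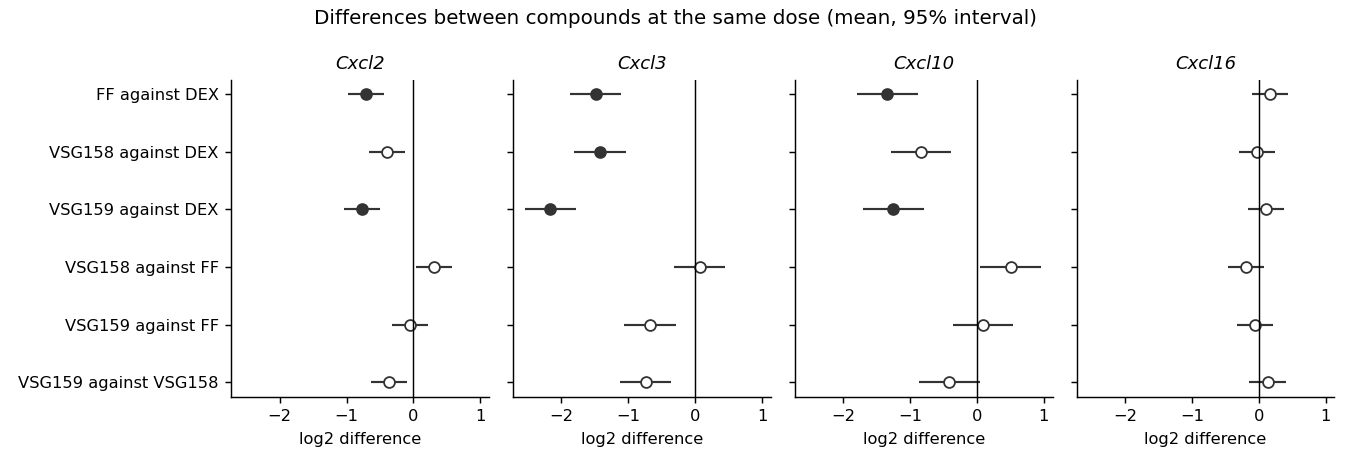
log2 differences between compounds for 4 members, first-named compound minus second, with 95% intervals (n = 3 arrays a group). Filled points passed the test. Cxcl3 lies at -1.42 to -2.16 in its 3 comparisons with DEX, Cxcl2 and Cxcl10 are lower with FF and VSG159 than with DEX, and the brighter Cxcl16 probe lies near 0 throughout.

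Set side by side, the interferon-induced Cxcl9 and Cxcl10 were lower with every steroid and Cxcl11 was not called. Of the neutrophil-attracting members, Cxcl2 was lower with every steroid and Cxcl3 with all but DEX. With DEX, 1 of 4 neutrophil-attracting members was called lower and 3 higher (all genes, 23.1% and 23.2%). The 3 higher calls, of Cxcl1, Cxcl3 and Cxcl5, were all lost in the deposited value table, when adjusted over all 10 comparisons and with slide and array position. With FF, VSG158 and VSG159, 2 of 4 were lower and 0 higher, where 21.4%, 24.6% and 24.9% of all genes were lower. Of the 3 interferon-induced members, 2 were lower and 0 higher with each steroid, beside the same shares. Among these calls, Cxcl9 passed the filter on dim probes through vehicle alone, and Cxcl1 through DEX alone. Both were high in those groups, so these counts support nothing by themselves. The log2 changes with DEX were -3.04 for Cxcl10, -0.19 for the brighter Cxcl11 probe and -0.60 for Cxcl2, and those with FF were -4.38, -0.16 and -1.31.

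Of 10 CXC and atypical chemokine receptors, 5 passed the filter on dim probes, and all were dim. Cxcr5, the receptor of a B cell chemokine, was called lower with each steroid (adjusted p = 0.000675 to 0.00256) and was above background on 3 of 15 arrays. With so few, it can have passed the filter through 1 group alone. Its mean log2 signal was -3.05 in vehicle and -5.31 to -4.92 with the steroids, so these calls support nothing by themselves. Cxcr3, which binds Cxcl9, Cxcl10 and Cxcl11, was called higher with each (adjusted p = 0.00329 to 0.039) and was above background on 6 of 15 arrays. Its mean log2 signal was -5.43 in vehicle and -4.59 to -4.09 with the steroids, close to background, so these calls too support nothing by themselves. The other 3 receptors were not called. Of the 6 other CXC ligands 1 was measured, Pf4, whose gene lies within the cluster of Cxcl5, Cxcl3, Cxcl1 and Cxcl2. Pf4 rose by 2 under DEX, 1.71 under FF, 1.49 under VSG158 and 1.37 under VSG159 (log2, SE 0.17, adjusted p = 1.95e-06 to 3.23e-05), while Cxcl2 of the same cluster fell. Of the enzymes that cut CXCL16 from the cell surface, Adam10 rose with DEX (0.60, adjusted p = 0.0109) and Adam17 differed by -0.56 (adjusted p = 0.0575), and neither was called with the other steroids.

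Genes that share the signals of the chemokines were counted in 3 lists, to be read beside the shares of all genes called lower (23.1% under DEX, 21.4% under FF, 24.6% under VSG158, 24.9% under VSG159) and called higher (23.2%, 20.8%, 19.7% and 19.1%). Of 24 NF-kB dependent inflammatory genes, 12 were lower and 2 higher with DEX, 18 lower and 1 higher with FF, 17 lower and 1 higher with VSG158, and 18 lower and 1 higher with VSG159. Their median changes were -0.32, -0.54, -0.50 and -0.67. Compared with DEX, 10 were lower with FF, 7 with VSG158 and 11 with VSG159, and 0 were higher, where 4.08%, 2.11% and 4.82% of all genes were called in either direction. Il1b, the inflammasome cytokine, changed by -2.06 under DEX, -3.72 under FF, -3.43 under VSG158 and -3.84 under VSG159 (SE 0.15), and like Cxcl10 stood highest of the steroid groups with DEX. Il1a changed by -2.06 with DEX and -4.02 with VSG159, the stress gene Ier3 by -1.38 and -2.33, and Il6 by -1.01 and -2.38. Tnf, the classic early cytokine, moved less, at -0.31 with DEX (adjusted p = 0.0519, not called) and -0.46 to -0.65 with the others.

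Of 23 genes of interferon production and signalling, 17 were lower under DEX, 18 under FF, 19 under VSG158 and 20 under VSG159, and 0 were higher with any. Their median changes were -0.68, -0.81, -0.89 and -0.95. Irf1, a factor that acts at interferon response elements, changed by -2.11 with DEX and -2.27 with VSG159, and Usp18, an inhibitor of interferon receptor signalling, by -1.34 and -1.81. Ifnb1, the interferon itself, was above background on the 3 vehicle arrays and on none of the steroid arrays (adjusted p = 2.2e-07 to 8.53e-07). It entered the test through vehicle alone, where it was high, so these p-values support nothing by themselves. Ifnb1 is among the genes of this list counted as lower with each steroid. Between DEX and the other steroids 1 of the 23 was lower with FF, near the 4.08% of all genes called, 0 with VSG158 (2.11%) and 3 with VSG159 (4.82%). Under array median scaling the number called lower fell to 11 with DEX for this list, and to 10, 11 and 10 with FF, VSG158 and VSG159 for the NF-kB list. Fewer genes over the whole array were called lower under this scaling too. Out of 19506, DEX had 2588 (main fit, 4515) and FF had 2116 (main fit, 4170). VSG158 had 2997 (main fit, 4802), while VSG159 had 2313 (main fit, 4865).

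Of 14 factors that act on the stability of chemokine mRNAs, 3 were lower and 3 higher with DEX, and 5 lower and 2 higher with FF. With VSG158, 4 were lower and 1 higher, and with VSG159 5 were lower and 1 higher. The DEX counts are near the shares of all genes, 23.1% lower and 23.2% higher. Zfp36 (tristetraprolin), which promotes decay of AU-rich mRNAs, fell by 0.68 under DEX, 1.41 under FF, 1.23 under VSG158 and 1.39 under VSG159. Its relative Zfp36l2 rose by 0.53 with DEX (adjusted p = 0.00834) and fell by 0.45 with FF and 0.56 with VSG159, with -0.24 for VSG158 (adjusted p = 0.197). Mapk14, the p38 kinase, rose by 0.49 to 0.60 with every steroid. Dusp1, the phosphatase that turns p38 off, differed by 0.12 with DEX (adjusted p = 0.472) and fell by 0.57 with FF, 0.37 with VSG158 and 0.50 with VSG159.

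**Figure D5:**
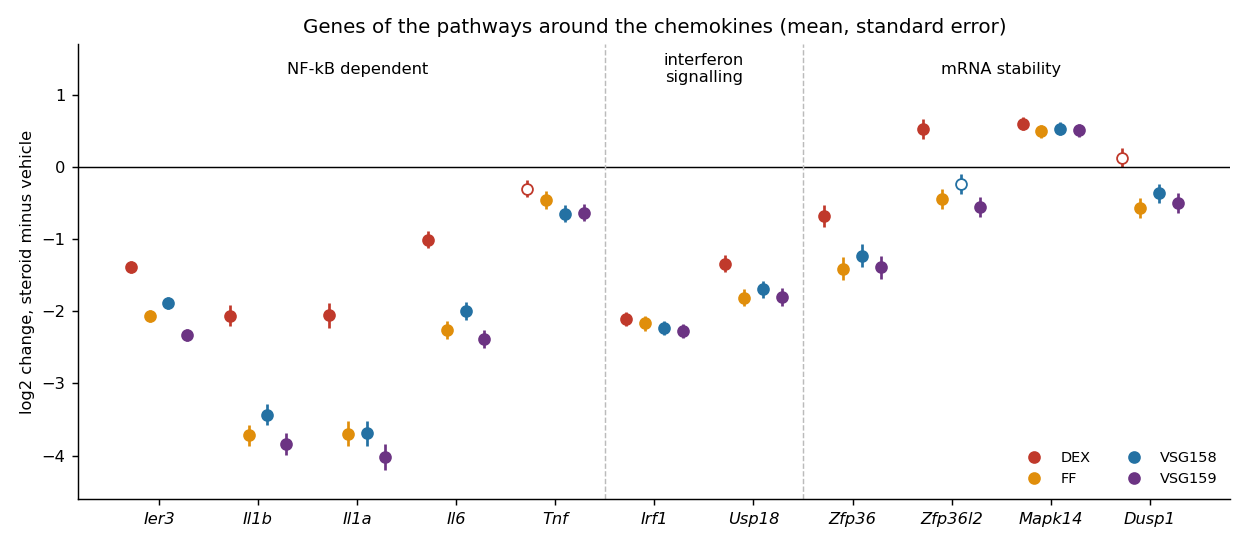
log2 change against vehicle, with standard errors (n = 3 arrays a group), of genes around the chemokines: 5 NF-kB dependent genes, 2 of interferon signalling and 4 that act on mRNA stability. Filled points passed the test. Il1b, Il1a and Il6 fell less with DEX than with FF, VSG158 and VSG159, while Irf1, which fell with all 4, was not called in any comparison with DEX.

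The genes whose signal followed each chemokine most closely over the 15 arrays were found by Pearson correlation across all genes, as a description, since the arrays share their groups. Nearest to Cxcl2 were Il6 (0.984), Lif (0.984), which encodes a cytokine of the Il6 family, and Mex3d (0.981). Cxcl10 was followed by the haem oxygenase gene Hmox1 (0.993), the stress factor gene Atf3 (0.993) and Tbc1d9 (0.992). Nearest to Cxcl3 were Acvr1b (0.958), Glipr2 (0.949) and Kdm4c (0.943), whose changes with DEX were 0.11, 0.23 and 0.14 and with VSG159 -0.52, -0.65 and -0.49. Cxcl9 was closest to Sprr2i (0.976), Dio2 (0.973) and Npy (0.968). It was above background on only 2 of the 15 arrays, so these correlations rest mostly on signal near background. Cxcl16 was closest to Hmbox1 (0.986), the interferon-induced Ifi44l (0.985) and Tor1aip1 (0.985), which changed by -1.42 to -0.99 over the 4 steroids.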

How the data were processed

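Total RNA of 15 samples was hybridised to one-colour (Cy3) Agilent arrays. Per the file headers, Feature Extraction 10.7.3.1 made the deposited processed signal, a background-subtracted intensity on a linear scale, with probe positions on mm9. The deposited table of values holds log2 values made by the authors by steps not given in the sources used here, and it served as an alternative. Groups were taken from the sample labels.

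Here, each array's log2 intensity was centred on its 75th percentile, control spots were left out, and spots marked as outliers were set missing. A probe entered the test if 2 or more of the 3 arrays in any group had it well above background, which left 28508 of 56605. limma 3.58.1 (R 4.3.3) fitted all 15 arrays with group alone, and p-values were Benjamini-Hochberg adjusted within each of 10 comparisons and called under 0.05. A gene was counted through its brightest tested probe. Where every array of a group was not well above background, a lower bound of the fold is given, set against the higher of that probe's own signal and the array's lowest signal well above background. The other group enters by its mean, so the bound is not strict where an array of it was not above background. An exact permutation test of 3 against 3 cannot go below 0.1 (two-sided), so none was used. The number of arrays limits the precision.

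The 75th percentile of the arrays was 695 to 1223 intensity units, and arrays of a group correlated at 0.963 to 0.991. The members and gene lists were chosen with earlier results of these data known. Named genes are all members and the landmarks Fkbp5, Hp, Ifnb1, Irf1, Tnf and Il1b. Named too are up to 4 genes of each list with the smallest adjusted p in limma's F test over the 5 groups. So are the 3 genes that correlate best with Cxcl2, Cxcl10, Cxcl16 and each further member without a missing value called by that F test. A further gene that the rule names is not reported here. Names of predicted genes and clones were skipped. The same-numbered replicates were not paired by the labels, and in no comparison did all 3 numbers correlate above 0.1. Exon and UTR positions of the probes were not assigned here. Alternatives covered scaling, background, filters, slide, array position, the deposited table and leaving out each array.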

Additional observations from a re-analysis of the deposited data

How the results depend on the processing

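No member's call changed sign under an alternative. Counts of members called against vehicle stayed within 1.5 times, with these exceptions. With DEX (7 called) there were 4 in the deposited table, 4 when adjusted over all 10 comparisons and 0 with slide and array position. All genes called under these settings were 7714, 7647 and 32, against 9048 in the main fit. The fit with slide and array position left 1 with FF (6) and 3 with VSG159 (6), beside 983 and 2683 genes. Against DEX, the 3 members called with FF became 0 under array median scaling and 0 with slide and array position, where 0 genes were called under each. The 1 called with VSG158 became 4 over all 10 comparisons, where all genes called went from 411 to 1246. It became 0 with slide as a fixed or a random block, with slide and array position, or with the 2 groups alone (657, 0, 0 and 0 genes). The 3 called with VSG159 became 1 under array median scaling, 1 with slide as a fixed block, and 0 within 1 slide, with slide and array position, or with the 2 groups alone. All genes called went from 941 to 30 under array median scaling, 480 with slide as a fixed block, and 0 with slide and array position or the 2 groups alone. Over all 10 comparisons 1 member was called for VSG159 against FF and 1 for VSG159 against VSG158. Leaving out 1 array gave 4 to 7 members with DEX against vehicle and 1 to 2 with VSG158 against DEX. DEX and FF share no slide with vehicle, so their changes rest on VSG159, the group on both slides, once slide enters the fit.

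Genes called over the whole array moved more. Against vehicle the counts were 9048 with DEX (32 to 9207 over the settings), 8232 with FF (983 to 8981), 8651 with VSG158 (5092 to 9248) and 8583 with VSG159 (2683 to 10101). Against DEX they were 795 with FF (0 to 1800), 411 with VSG158 (0 to 1246) and 941 with VSG159 (0 to 1950), and without 1 array they fell as low as 118 without FF replicate 2, 97 without DEX replicate 3 and 180 without VSG159 replicate 2. The pairs among FF, VSG158 and VSG159 had 0, and 174, 181 and 190 when adjusted over all 10 comparisons. With the replicate number as a block, a pairing that the labels do not give, Cxcl10 changed by -3.04 with DEX (adjusted p = 1.85e-06), and Cxcl5 with DEX was no longer called (adjusted p = 0.0771).

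The share of called genes that were higher turned with the processing. For FF against DEX it was 45.4%, and 59.2% with quantile normalization, 57.9% with normexp background and 58.2% in the deposited table. For VSG158 against DEX it was 53.3%, and 64.7% with quantile normalization, 67.2% without a filter, 38.4% when adjusted over all 10 comparisons and 30.4% with slide as a fixed block. For VSG159 against DEX it was 27.4%, and 42.1% with quantile normalization, 40.6% with normexp background and 40.4% with slide as a fixed block (0% of 2 genes within 1 slide), and for VSG159 against vehicle 43.3% and, with slide and array position, 54.3%. Array median scaling put the median change of all genes at -0.12 for VSG158 against vehicle, -0.11 for VSG158 against DEX, -0.14 for VSG158 against FF and 0.11 for VSG159 against VSG158.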
